A study of Mus musculus with 6 samples.

Results

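Dusp1 and 6 other genes for MAP kinase phosphatases (Dusp2, Dusp4, Dusp5, Dusp6, Dusp10 and Dusp16), with Zfp36, were followed in blood neutrophils of wild-type and phd3 null mice. The members were taken by gene symbol, and every probe set whose annotation gives one of these symbols was used. They made up 8 of 18193 named genes and 10 of 45037 non-control probe sets, since Dusp10 and Dusp16 have 2 probe sets each and the others 1. Dusp1 headed the selection because its signal was lower in phd3 null samples in earlier results of the same 6 arrays. The differences between genotypes below are therefore a description of the values that chose Dusp1, and no p-value of a member's own difference is printed. Counts of members past a threshold in that contrast are given beside the share of all genes.

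MAP kinases are activated when a dual-specificity kinase phosphorylates a threonine and a tyrosine in their activation loop, and MAP kinase phosphatases switch them off by removing both phosphates. Many of the phosphatase genes are induced by the kinases that they inactivate, which makes them feedback regulators. In myeloid cells Dusp1 restrains p38 and JNK signalling and cytokine production, and tristetraprolin, the product of Zfp36, is an RNA-binding protein that speeds the decay of cytokine mRNAs with AU-rich elements downstream of the same kinases.

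The mice were on a C57 background and either wild type or phd3 null, a genotype that lacks the oxygen-dependent prolyl hydroxylase gene now named Egln3. Neutrophils were taken from the peripheral blood of individual mice by negative magnetic selection and cultured for 4 h at 3% oxygen, so both genotypes were hypoxic. There were 6 Affymetrix arrays, 3 a genotype, each taken as 1 mouse. Ages and sexes of the mice, and the part of phd3 that was deleted, are not given in the sources used here, and no culture at normal oxygen was analysed here.

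The arrays had similar overall signal, with medians over probe sets of 49.4 to 64.2. Egln3 was at 29.6 to 87.2 in phd3 null and 327 to 2088 in wild-type samples. Of the neutrophil markers, S100a8 and S100a9 were at 11102.8 or more on every array, Ltf was at 159.3 to 208.7, and Cxcr2 was at 25.6 in phd3 null sample 3 and 227 to 978.9 elsewhere. The sum of 10 neutrophil markers was 25868.6 to 51201.6 in phd3 null and 43075.4 to 57063.5 in wild type. Transcripts of other blood cell types were also read. The sum of 3 erythroid markers, mostly Alas2, was 750.1, 3813.9 and 6831 in phd3 null samples 1 to 3. In wild type it was 2610.2, 5977.5 and 4777.7, with phd3 null lower in pairs 1 and 2 and higher in pair 3. The summed signal of 6 B cell markers was 258.3 to 580.5 in samples 1 and 2 of both genotypes and 3214.7 and 2603.4 in phd3 null and wild-type sample 3. The sum of 7 natural killer (NK) cell markers was lower in phd3 null in 3 of 3 same-numbered pairs, at 462.3 to 2852 against 1380.4 to 5950.6. Gzma was the largest part of this sum on every array. Gzma, Klrk1, Klre1, Klra8 and Nkg7 were each lower in phd3 null in every pair. Ncr1 was higher in phd3 null in pairs 1 and 3 (61 against 56.8 and 73.8 against 50), and Prf1 in pair 1 (73.3 against 64.7). Both arrays of sample 3 also stood apart in Gapdh 3' signal (3107.5 and 3491.4 against 6656.3 to 8276.6) and in the hypoxia-induced gene Bnip3 (202.3 and 195.7 against 2575.4 to 4817.4). Xist, expressed from the inactive X chromosome, read 1180.4 for wild-type sample 2 and 1061 for wild-type sample 3, against 72.9 to 292 on the other arrays. The same arrays were the lowest for the Y-linked gene Eif2s3y, with 54 for wild-type sample 2 and 38.7 for wild-type sample 3. All other arrays, wild-type sample 1 included, lay at 144.3 to 585.4. These sex-linked signals thus divided the wild-type group and were not balanced between the genotypes. Fewer cells of a type and less RNA per cell cannot be told apart in these bulk samples.

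The upstream sequences of 4 members are shown: Dusp1, Dusp16, Dusp5 and Zfp36. The values of Dusp16 (by its brighter probe set) and Dusp5 correlated most with those of Dusp1 over the arrays. Zfp36 is an immediate early gene whose signal was alike in both genotypes. Each sequence is the 250 bases before the RefSeq transcription start in GRCm38.p6, read 5′ to 3′ on the gene's strand. Capitals mark the cAMP response element TGACGTCA and its shorter form TGACG, the core letters ACGTG and GCGTG that hypoxia-inducible factor (HIF) can bind, and the CArG box of serum response factor.
Dusp1 (chr17:26508473-26508722, minus strand): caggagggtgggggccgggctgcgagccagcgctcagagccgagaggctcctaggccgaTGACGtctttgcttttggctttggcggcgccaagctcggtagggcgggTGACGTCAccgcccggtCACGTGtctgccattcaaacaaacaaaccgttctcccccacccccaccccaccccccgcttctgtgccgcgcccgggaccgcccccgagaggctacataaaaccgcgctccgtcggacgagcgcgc
Dusp5 (chr19:53528895-53529144, plus strand): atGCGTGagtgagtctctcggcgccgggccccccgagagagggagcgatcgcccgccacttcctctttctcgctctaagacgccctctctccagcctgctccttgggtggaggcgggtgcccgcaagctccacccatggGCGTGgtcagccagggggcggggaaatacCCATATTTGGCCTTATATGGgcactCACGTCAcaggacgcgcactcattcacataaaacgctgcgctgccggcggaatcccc
Dusp16 (chr6:134792629-134792878, minus strand): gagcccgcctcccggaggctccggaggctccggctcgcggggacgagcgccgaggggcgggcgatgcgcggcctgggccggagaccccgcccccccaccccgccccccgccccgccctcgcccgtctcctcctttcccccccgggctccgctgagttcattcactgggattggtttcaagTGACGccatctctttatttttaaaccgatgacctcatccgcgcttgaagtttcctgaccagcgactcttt
Zfp36 (chr7:28379229-28379478, minus strand): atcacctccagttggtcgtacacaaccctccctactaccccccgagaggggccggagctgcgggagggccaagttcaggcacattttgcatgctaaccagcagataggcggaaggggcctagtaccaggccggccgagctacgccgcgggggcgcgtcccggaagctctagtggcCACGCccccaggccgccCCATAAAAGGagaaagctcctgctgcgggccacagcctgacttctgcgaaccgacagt

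Both strands of these windows were searched, and overlapping matches were counted separately. Dusp1 held the full element TGACGTCA from -143 to -136 and a further TGACG from -191 to -187, with positions counted back from the start site. The full element occurred in 1.55% of 32851 mouse promoter windows of the same length, and among the 7 members with a window in the table it was found in Dusp1. The full element reads the same on both strands and therefore contains the shorter form in both directions. A TGACG was also present in Dusp5 (from -55 to -51, minus strand) and Dusp16 (from -70 to -66), and 17.8% of all windows hold one. Dusp5 carried adjacent CArG boxes from -82 to -73 and from -72 to -63, and Zfp36 had a single one from -58 to -49, a motif found in 1.47% of windows. The core ACGTG was in Dusp1 (on both strands within the E-box CACGTG from -126 to -121), Dusp2 and Dusp5, where it overlaps the TGACG, against 16.6% of windows. The core GCGTG was in Dusp2, Dusp5 and Zfp36, against 28.2%. These are matches of letters in short windows, with no measurement of binding.

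**Figure D1:**
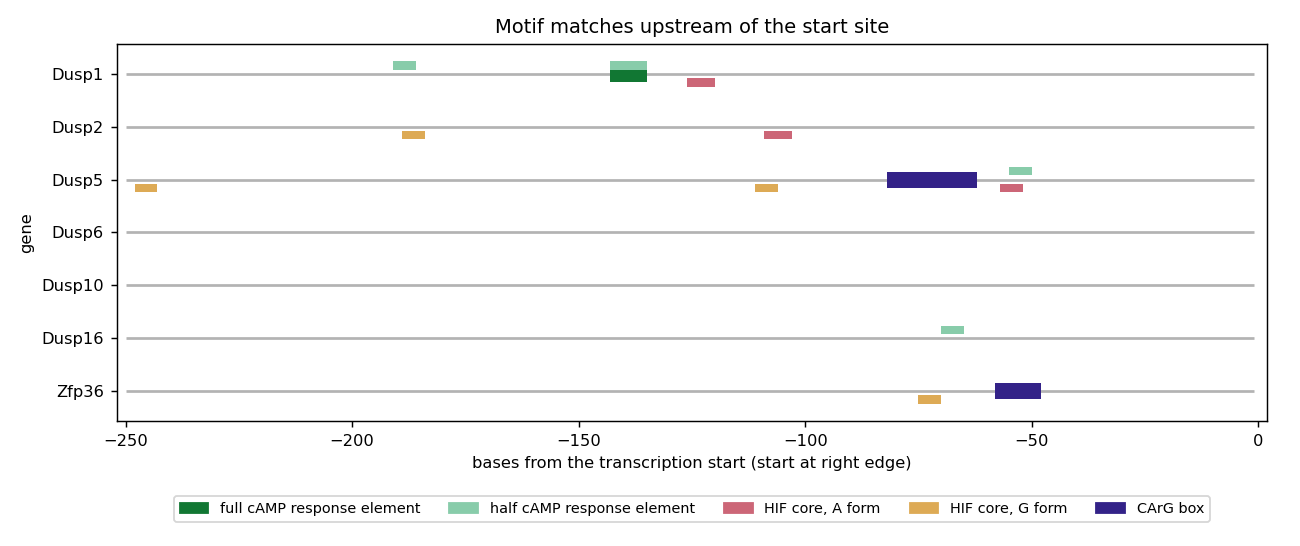
Positions of motif matches in the 250 bases upstream of the transcription start of 7 member genes, as boxes along each gene's line (x axis: bases from the start). The full cAMP response element appears in Dusp1, CArG boxes appear in Dusp5 and Zfp36, and Dusp6 and Dusp10 have no match to the motifs drawn.

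Dusp1, which encodes an inducible nuclear phosphatase of p38 and JNK, had a lower signal in every phd3 null sample than in any wild-type sample. Its signal was 5415, 3169.3 and 4187.2 in wild-type samples 1 to 3 and 2697.8, 1557.3 and 2582.7 in phd3 null samples 1 to 3. The groups did not overlap, and sample 2 was the lowest of both genotypes. The mean ± SD (n = 3) was 2279 ± 628 without phd3 and 4257 ± 1124 with it, so that the phd3 null mean was 53.5% of the wild-type mean. On the log2(signal + 16) scale, on which differences of dim genes are understated, phd3 null minus wild type was -0.90 (SE 0.38). Within same-numbered pairs the difference was -1.001, -1.02 and -0.69. The pair 3 arrays, with the smallest of these differences, were those with high B cell and low Bnip3 signal. The NK cell marker sum was lower in phd3 null in the same 3 pairs (log2 ratios -1.58, -1.06 and -0.56). The neutrophil marker sum, made up mostly of S100a8 and S100a9, was lower in pairs 1 and 3 (log2 ratios -0.48, 0.11 and -0.74). Single neutrophil markers went both ways in pair 1. Csf3r was at 3536.2 in phd3 null and 2787 in wild type and Cxcr2 at 840.1 and 558.9, while Ngp was at 680.2 and 872.4. The part of NK cell content, erythroid content, neutrophil content or sex in the Dusp1 difference was not tested.

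Dusp16, encoding a phosphatase with a preference for JNK, was the other member whose groups did not overlap. By its brighter probe set the signal was 458, 280.9 and 323.1 in wild-type samples 1 to 3 and 243.6, 189.5 and 205.3 in phd3 null samples 1 to 3. Sample 1 was again the highest and sample 2 the lowest in both genotypes, as for wild-type Dusp1. The log2 difference was -0.67 (SE 0.32), with -0.87, -0.53 and -0.62 in the pairs. The dimmer probe set read 137.6, 128.2 and 60.4 in wild type and 67, 90.3 and 13.4 in phd3 null samples 1 to 3. There phd3 null was lower in each pair as well (-0.89, -0.44 and -1.38), but the groups overlapped. Over the 6 arrays the 2 probe sets correlated with each other at a Pearson r of 0.542, and in the dimmer one sample 3 was the lowest of both genotypes.

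Dusp5, which encodes a nuclear phosphatase for ERK, had the most negative log2 difference among the members, and its difference did not hold in all pairs. Its signal was 475.6, 217.7 and 262.9 in wild-type samples 1 to 3 and 87.8, 86.8 and 300.6 in phd3 null samples 1 to 3. In phd3 null, samples 1 and 2 lay below every wild-type sample and sample 3 lay within their range. The log2 difference was -1.08 (SE 0.50), and -2.24, -1.18 and 0.18 in the pairs. Without both arrays of sample 3 it was -1.71.

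Dusp2, an inducible nuclear phosphatase gene first found in activated T cells, was lower in phd3 null in each pair, by less in pair 3. Its signal was 327.3, 237.7 and 719.2 in wild-type and 132.1, 145.1 and 635.8 in phd3 null samples 1 to 3. Sample 3 was the brightest of both genotypes, and the groups overlapped because of it. The log2 difference was -0.68 (SE 0.61), and -1.21, -0.66 and -0.17 in the pairs. It ranged from -1.37 without phd3 null sample 3 to -0.24 without wild-type sample 3.

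Dusp4, encoding another nuclear phosphatase induced by ERK, was the dimmest member. Its signal was 40.3, 69.2 and 100.7 in wild-type and 14.5, 2.9 and 177.4 in phd3 null samples 1 to 3. The phd3 null samples included both the lowest and the highest of the 6 values. The log2 difference of -0.78 (SE 0.85) was made of -0.88, -2.17 and 0.73 in the pairs, and it ranged from -1.78 without phd3 null sample 3 to -0.10 without phd3 null sample 2. No detection calls were used here, so whether Dusp4 was present on an array is not stated.

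Dusp6 encodes a cytoplasmic phosphatase of ERK. Its signal was 945, 1036.7 and 346.2 in wild-type and 781.8, 752.3 and 267.2 in phd3 null samples 1 to 3. It was lower in phd3 null in each pair by a small amount (-0.27, -0.45 and -0.36), while sample 3 was far below samples 1 and 2 in both genotypes. The log2 difference was -0.36 (SE 0.53). It was 0.13 without phd3 null sample 3 alone, -0.85 without wild-type sample 3 alone, and -0.36 without both.

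Dusp10, encoding a phosphatase of p38 and JNK, was not lower in phd3 null. By its brighter probe set the signal was 19.6, 131.3 and 218.9 in wild-type and 59.5, 58.8 and 258.1 in phd3 null samples 1 to 3, a log2 difference of 0.11 (SE 0.74). The pairs gave 1.08, -0.98 and 0.22, and the difference was -0.69 without wild-type sample 1 and 0.68 without wild-type sample 3. The other probe set read 55, 26 and 41.4 in wild-type and 34.7, 56 and 110 in phd3 null samples 1 to 3, with a difference of 0.48 (SE 0.61, from the fit over all probe sets). The 2 probe sets correlated at 0.226 over the arrays.

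Zfp36 was at nearly the same signal in both genotypes. It read 1491.9, 1111.8 and 1481.2 in wild-type and 1187.2, 1223.4 and 1445.6 in phd3 null samples 1 to 3, with means of 1362 ± 216 and 1285 ± 140 (SD, n = 3). The groups overlapped, and the lowest of the 6 values was a wild-type one. The log2 difference was -0.07 (SE 0.31), with -0.33, 0.14 and -0.03 in the pairs, and it became 0.03 with quantile normalization.

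**Figure D2:**
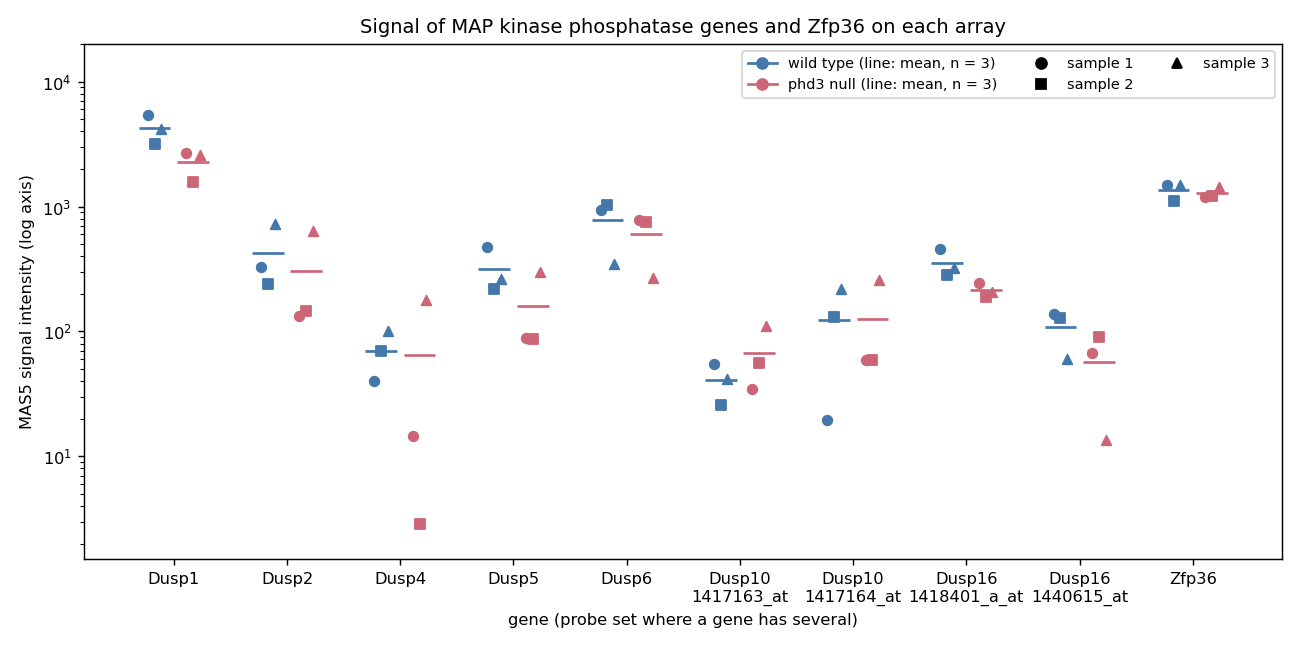
MAS5 signal intensity (log axis) of each member probe set on the 6 arrays, wild type in blue and phd3 null in red, with marker shapes for samples 1 to 3 and a line at each group's mean. The groups separate for Dusp1 and for the brighter Dusp16 probe set, and sample 3 stands away from samples 1 and 2 in both genotypes for Dusp2 and Dusp6.

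Counted by gene, 7 of 8 members had a negative difference, with a median of -0.68, where 50.6% of the 10960 genes tested were lower and the median over all of them was -0.01. All 8 members passed the filter on low values. Pairs 1 to 3 gave member medians of -0.88, -0.82 and -0.10. The count was 6 of 8 with quantile normalization, 8 of 8 with array quality weights or without wild-type sample 1, and 7 of 8 in the other 13 alternatives. Members lower in all pairs numbered 4 of 8 (Dusp1, Dusp2, Dusp6 and Dusp16), where the share over all genes was 13%. Groups did not overlap in 2 of 8, with phd3 null lower in both, where the share over all genes was 6.92% in either direction and 3.02% with phd3 null lower.

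In the limma fit over all genes 0 of 8 members had an adjusted p under 0.05, as did 0% of all genes. At an unadjusted p under 0.05 there was 1 of 8 members and 191 genes or 1.74%. With the replicate number as a block the adjusted counts were 0 of 8 members and 2 genes or 0.0182%, and the unadjusted ones 4 of 8 members and 5.62% of genes. In the fit over all probe sets 0 of 10 member probe sets passed, as did 0% of 45037 without the block and 0.0133% with it. Since Dusp1 was chosen on this contrast, these counts are given for completeness and nothing is read from them.

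**Figure D3:**
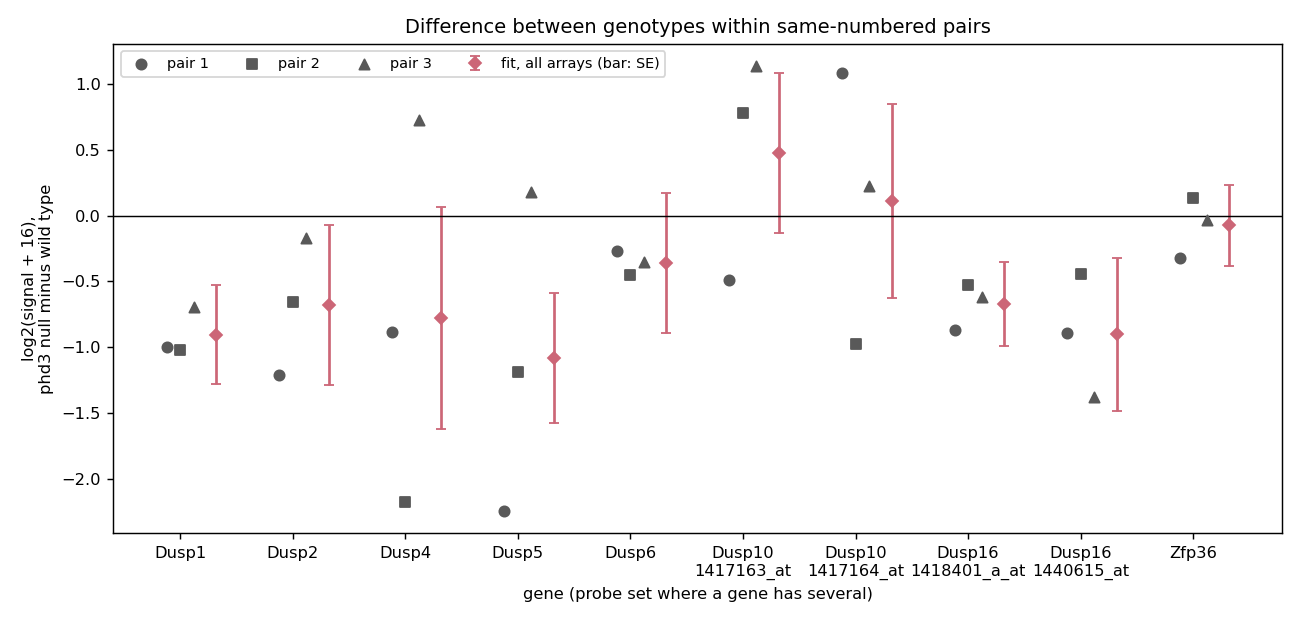
Difference in log2(signal + 16), phd3 null minus wild type, for each member probe set in pairs 1 to 3 (grey markers) and in the fit over all arrays (red diamonds, bars are the SE). Dusp1 and both Dusp16 probe sets lie below 0 in every pair, Dusp5 and Dusp4 lie above 0 in pair 3, and Zfp36 lies near 0.

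How the members differ between samples of one genotype was not used to choose them and could be tested. A moderated F test in limma asked whether the replicate number mattered once genotype was in the model, since same-numbered samples share a source code in the labels. It called 3 of 8 members, Dusp6 (adjusted p = 0.00128), Dusp2 (adjusted p = 0.00222) and Dusp10 (adjusted p = 0.0217), against 11.1% of the 10960 genes. Dusp6 was lower in sample 3 than in the mean of samples 1 and 2 by the same amount in both genotypes, -1.47 in wild type and -1.47 in phd3 null on the log2 scale. Dusp2 was higher in sample 3, by 1.32 in wild type and 2.08 in phd3 null. Dusp10 was higher by 1.70 and 1.87 by its brighter probe set, but by 0.07 and 1.06 by the other, which was not called (adjusted p = 0.894 in limma over all probe sets, of which 4.37% were called).

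For Dusp1 and Zfp36 sample 3 did not stand apart. It differed from the mean of samples 1 and 2 by 0.02 and 0.33 for Dusp1 in wild type and phd3 null, and by 0.20 and 0.26 for Zfp36, while sample 2 was the lowest for Dusp1 in both genotypes. Neither was called for replicate number (limma adjusted p = 0.135 and 0.711), and nor were Dusp16 (adjusted p = 0.555), Dusp5 (adjusted p = 0.409) or Dusp4 (adjusted p = 0.238).

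The replicate calls depended on how the variance was modelled. Without a trend in the prior variance the test called 0 of 10960 genes, with 1883 at an unadjusted p under 0.05, and the 3 members gave adjusted p = 0.156 (Dusp2), 0.154 (Dusp6) and 0.191 (Dusp10). Over 13 alternatives Dusp6 was called in 12, Dusp2 in 11 and Dusp10 in 9. Dusp2 and Dusp10 were also lost without phd3 null sample 3 (limma adjusted p = 0.0581 and 0.0842), and Dusp10 without wild-type sample 1 (adjusted p = 0.0504) or with its probe sets averaged. Dusp5 was called in 1 alternative, without wild-type sample 3. The B cell marker sum and the Bnip3 signal given above moved with sample 3 in both genotypes. So did the sum of 4 monocyte markers (4306 and 5127.9 in sample 3 against 10970.8 to 13072.1) and the heat shock gene Hspa1a (1157.9 and 1175.1 against 67.2 to 171.3). Csf1r, which made up most of the monocyte sum, and Adgre1 were lowest in sample 3 of both genotypes. Ccr2 and Cx3cr1 were lowest in sample 3 of phd3 null. In wild type these 2 markers were lowest in sample 1 (284.2 and 297.8, against 385.4 and 361.1 in sample 3). The part of these cell and stress signals in the replicate calls was not tested.

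**Figure D4:**
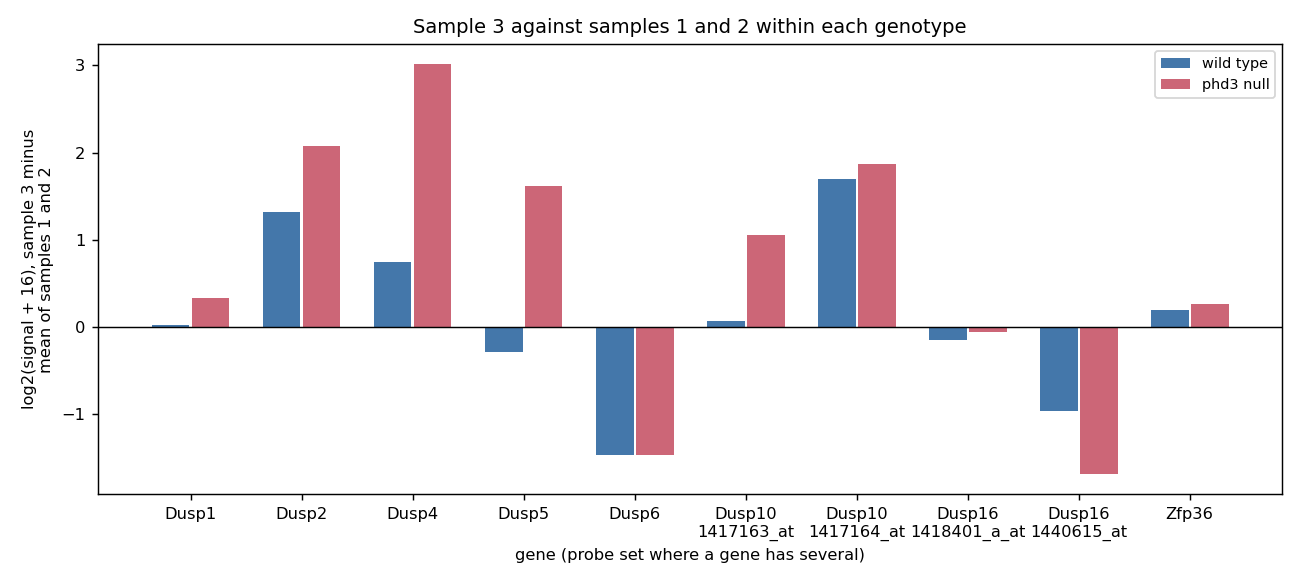
Sample 3 minus the mean of samples 1 and 2 within each genotype, in log2(signal + 16), for each member probe set (bars, wild type blue and phd3 null red). Dusp2 and the brighter Dusp10 probe set are higher and Dusp6 lower in sample 3 of both genotypes, while Dusp1, Zfp36 and the brighter Dusp16 probe set stay within 0.33.

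Over the 6 arrays Dusp16, by its brighter probe set, was the member most like Dusp1 (Pearson r of 0.944 on log2(signal + 16)). Next came Dusp5 at 0.799, Zfp36 at 0.539, Dusp2 at 0.499 and Dusp4 at 0.46. Dusp6 (0.049) and Dusp10 (-0.145) did not follow Dusp1. The dimmer Dusp16 probe set was at 0.275 with Dusp1 and at 0.895 with Dusp6. Dusp2 followed Dusp4 (0.891) more closely than Dusp1, and ran against Dusp6 (-0.775). These are descriptions over 6 points that share array scaling, genotype and replicate number. By its brighter probe set Dusp16 ranked 14 among the 10959 other genes, and 37 genes had an r above 0.9. Among the 5 genes most like Dusp1 were the mitochondrial insertase gene Oxa1l (0.989), the GTPase gene Rab15 (0.985), the autophagy gene Gabarapl1 (0.973) and the ADP-dependent glucokinase gene Adpgk (0.965). Oxa1l, Rab15 and Adpgk were at a mean signal under 200 in both genotypes, and Gabarapl1 had means ± SD (n = 3) of 253 ± 46.5 without phd3 and 329 ± 41.2 with it.

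Around the members, 99 further genes of the MAP kinase pathway and its outputs were tested, from lists drawn up with earlier results of these arrays known. The phd3 null side was lower for 57 and higher for 42 (median -0.05), and 0 passed at an adjusted p under 0.05 in limma, with or without the block. At an unadjusted p under 0.05 there were 2 of 99 without the block and 14 of 99 with it, beside 1.74% and 5.62% of all genes.

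Dusp8 and Dusp9, the other active MAP kinase phosphatases tested, differed by 0.92 (SE 0.63) and 0.94 (SE 0.77) on dim probe sets, and each was negative in 1 pair (-0.53 and -0.40). Among 7 atypical dual-specificity phosphatases the differences were positive in 4 and negative in 3 (median 0.41, and 0.11 without wild-type sample 1 or 0.20 without phd3 null sample 2). Dusp13 differed by 1.73 (SE 0.62), also on a dim probe set. It read 53.8, 9.8 and 4.6 in wild-type and 123.2, 89.7 and 76.9 in phd3 null samples 1 to 3. Dusp11, an RNA phosphatase gene, differed by 0.43 (SE 0.30), whereas Dusp12, at -0.24 (SE 0.35), was lower in all pairs. None of these 9 genes passed in limma.

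Among the kinases, 2 of 5 MAP kinases, 4 of 5 MAP kinase kinases and 7 of 11 MAP kinase kinase kinases were lower, with medians of 0.06, -0.24 and -0.03. These medians moved when 1 array was left out. Without phd3 null sample 2 they were -0.10, -0.41 and -0.25, without phd3 null sample 3 they were 0.36, -0.06 and 0.07, and without wild-type sample 3 they were -0.08, -0.41 and -0.21. Without phd3 null sample 1 they were -0.08, -0.34 and -0.05, without wild-type sample 1 they were 0.25, -0.39 and -0.02, and without wild-type sample 2 they were 0.08, -0.18 and -0.08. Mapk14, the p38 alpha gene, differed by 0.18 (SE 0.36) and Mapk8, the JNK1 gene, by 0.06 (SE 0.37). Map2k3, which encodes an activator of p38, was lower in all pairs with groups that did not overlap (mean ± SD 830 ± 227 against 1263 ± 211, n = 3; log2 difference -0.62, SE 0.33). Map3k7, encoding TAK1, was likewise lower in all pairs, at 103 ± 11.3 against 183 ± 31.7 (SD, n = 3; log2 difference -0.73, SE 0.31). All 7 MAP kinase-activated kinases tested were on the higher side, with a median of 0.24, although 3 of the 7 were negative once the first phd3 null array, or the third wild-type array, was dropped. In these lists 0 genes passed.

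Feedback inhibitors and output genes of the pathway were followed next. Of 5 Sprouty and Spred genes, inhibitors of the Ras and ERK pathway, 3 were higher. Spry4, on a dim probe set, differed by 1.26 (SE 0.61), with 0.91, 0.06 and 2.82 in the pairs. Its groups did not overlap, but the lowest phd3 null value was 41.3 and the highest wild-type value 38.8. Of 9 ERK output genes, which include Dusp4 and Dusp6, 5 were lower, with a median of -0.03 and Phlda1 at -0.53 (SE 0.41). In AP-1 and early growth response genes 14 of 19 differences were negative (median -0.18), with pair medians of -0.51, 0.11 and -0.17. Egr2 differed by -1.16 (SE 0.75) and Atf3 by -0.38 (SE 0.30). Without wild-type sample 1 the count was 10 of 19 and the median -0.04. Of 19, 7 were called for replicate number, against 11.1% of all genes, and 0 for genotype.

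Glucocorticoids induce Dusp1 and Zfp36 in many cells, and the list of such genes, which holds both, had 10 of 13 negative differences, a median of -0.14 and pair medians of -0.33, 0.10 and -0.52. Sgk1, a kinase gene, was lower in all pairs with groups that did not overlap (mean ± SD 442 ± 61.6 against 639 ± 61.8, n = 3; log2 difference -0.52, SE 0.29). Klf9 differed by -0.48 (SE 0.37), Tsc22d3 by -0.24 (SE 0.49) and Fkbp5 by -0.14 (SE 0.33), while Per1 was higher by 0.32 (SE 0.43).

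Tristetraprolin acts on the mRNAs of cytokines and other transient genes, and the list of these holds Zfp36 itself (-0.07). In it 15 of 17 differences were negative, the median being -0.57, where 50.6% of all genes tested were lower. With quantile normalization the count was 13 of 17 and the median -0.34. Members of smallest p were the polo-like kinase genes Plk3 (-1.37, SE 0.81) and Plk2 (-1.07, SE 0.64) and the chemokine genes Ccl3 (-0.74, SE 0.52) and Ccl4 (-0.57, SE 0.41), and Tnf differed by -0.05 (SE 0.67). In limma 0 of 17 passed, and 0 at an unadjusted p under 0.05. With the block 0 passed and 7 had an unadjusted p under 0.05, all lower, where 3.07% of all genes did. Pair medians were -0.81, -0.08 and -0.40, and dropping phd3 null sample 3 brought the list to -0.19, or wild-type sample 1 to -0.13. For replicate number, 8 of 17 were called, where 11.1% of all genes were. Among the other decay factors, Zfp36l1 and Zfp36l2 differed by 0.18 (SE 0.50) and -0.07 (SE 0.45), and Zc3h12a, the regnase-1 gene, by -0.63 (SE 0.33). The NK cell marker sum was lower in phd3 null in each pair, and its part in the chemokine values was not tested.

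**Figure D5:**
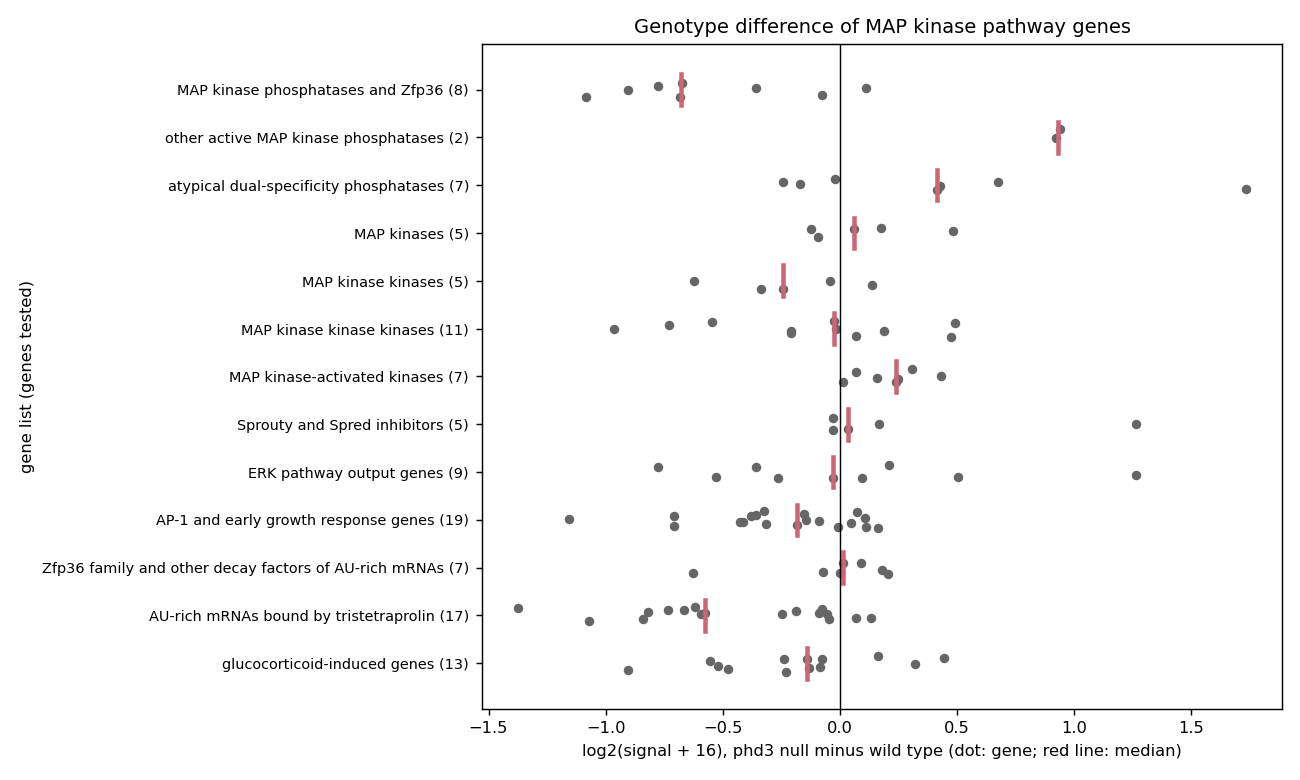
Log2 difference, phd3 null minus wild type (x axis, log2(signal + 16)), of each tested gene (dots) in the member list and 12 pathway lists, with the list's median as a red line and the number of genes tested in parentheses. The members' median lies at -0.68 and that of mRNAs bound by tristetraprolin at -0.57, and the medians of the kinase lists lie between -0.24 and 0.24.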

How the data were processed

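The deposited values are linear MAS5 signal intensities per the submitters' processing notes, with no version stated there. The mean of each array without the highest and lowest 2% of its values is 100, so all arrays had been brought to one level. Depth has no counterpart on arrays, and the number of arrays limits the precision. Of 45101 probe sets 64 were controls, 34945 had 1 gene symbol, 932 had several and 9160 none. Symbols came from the platform annotation, and all 8 members matched RefSeq by gene ID.

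Values were compared as log2(signal + 16). The tool was limma 3.58.1, run under R 4.3.3 (trend in the prior variance, two-sided, Benjamini-Hochberg over all features). A gene was represented by its probe set of highest mean, and genes with a mean log2 under 5.90 were not tested. SEs come from this gene fit, except for the second probe sets of Dusp10 and Dusp16, which come from the fit over all probe sets. The labels tie same-numbered arrays by a source code, so they were treated as pairs, and the replicate block is an alternative. Deviations from the genotype means correlated at 0.292, 0.151 and 0.474 for same-numbered arrays and at -0.363 to 0.177 for different-numbered ones. Phd3 null sample 2 correlated more with wild-type sample 1 (0.177) than with wild-type sample 2 (0.151). The 3 deviations of a genotype cancel out, which pulls some correlations down, so these values do not decide the pairing. Named genes were the members, up to 4 genes of smallest p per list and the 5 most like Dusp1, of which 1 is not reported here; further list genes were chosen after their values were seen. The members and lists were chosen with earlier results of these data known. The code was tested on simulated data. Promoter windows were found for 7 of 8 members.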

Additional observations from a re-analysis of the deposited data

How the results depend on the processing

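Dusp1 and the brighter Dusp16 probe set kept a negative difference under all 16 alternatives, from -1.10 to -0.65 and from -0.82 to -0.48. Dusp2, Dusp4 and Dusp5 were negative under all 16 as well, whereas Dusp6, Dusp10 (brighter probe set) and Zfp36 changed sign in at least 1. For Dusp6 the 1 was without phd3 null sample 3 alone, and without both arrays of sample 3 its difference was -0.36. Genes called between genotypes (limma, main count 0) were 2 with the replicate block, 1 without sample 3 of both groups and 46 with both changes, and 0 to 1 when 1 array was left out, the 1 being without wild-type sample 3. Dusp5 was the 1 of 8 members called, with the block and without sample 3, where 46 of 10960 genes were called. That fit had 2 arrays a genotype and 1 residual degree of freedom, and nothing is read from the call. Probe sets called (main count 0) were 1 with array quality weights, 6 with the block, 5 without sample 3, 102 with both changes, and 0 to 6 with 1 array left out (6 without wild-type sample 1). The block changed no member's call otherwise. Genes called for replicate number (main count 1218) were 556 with probe sets averaged, 0 without the trend, and 865 to 1642 with 1 array left out. Low MAS5 signals, as for Dusp4 and Dusp10, are the least precise on the log scale.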
